A study of Rattus norvegicus with 16 samples.

Results

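Osteoarthritic knee cartilage was compared with healthy knee cartilage of rats, by RNA sequencing, in 8 of the 16 libraries of the study and across all genes. The libraries were taken by their names in the count table. The osteoarthritic (OA) group was the 4 libraries named PBS, and the healthy group was the 4 named Sham. The labels give an age of 10 weeks for every animal in both groups, and neither the strain, the sex, the way in which osteoarthritis was produced nor the time since then. The sample titles do not explain these names, so it is not known whether the healthy knees were untouched. It is also not stated whether 1 library was 1 animal or a pool, and p-values therefore measure the spread between libraries, which may be technical. The other 8 libraries came from osteoarthritic cartilage treated with hyaluronic acid (HA) or with a coacervate, each with cells and a drug. They were not part of the contrast, and served to estimate the spread of each gene, to filter genes and to scale the counts. Of the 23552 genes in the table, 14337 were tested, namely those that reached an FPKM of 1 in 4 or more of the 16 libraries. FPKM is the number of fragments scaled to gene length and library depth.

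Articular cartilage is laid down by a single cell type, the chondrocyte, which embeds itself in type II collagen fibrils and the large proteoglycan aggrecan. In osteoarthritis this matrix is cut by secreted proteases, chiefly matrix metalloproteinases (MMPs) and the aggrecanases of the ADAMTS family, which are held back by tissue inhibitors (TIMPs). The disease also involves the synovium that lines the joint, whose fibroblasts and macrophages release chemokines and clear debris, and the bone beneath the cartilage.

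The libraries held cartilage RNA together with RNA of other tissues. All 8 had between 36988722 and 49342607 counts in total. The defining chondrocyte genes were present in every library. Type II collagen (Col2a1) averaged 370 ± 213 FPKM in OA cartilage and 360 ± 131 FPKM in healthy cartilage (SD, n = 4 each), whereas Sox9, the transcription factor that directs chondrocyte identity, was low at 1.40 ± 1.0 FPKM in OA and 2.17 ± 0.852 FPKM in healthy cartilage. Haemoglobin transcripts of red blood cells took 12.7%, 22.2%, 21.7% and 10.2% of the counts in OA replicates 1 to 4 and 16.1%, 12.2%, 12.3% and 16.1% in healthy replicates 1 to 4. The mean share was 16.7% ± 6.17 in OA and 14.2% ± 2.22 in healthy cartilage (SD, n = 4 each; exact two-sided permutation test over 70 assignments, p = 0.429, smallest possible p = 0.0286). Without OA replicates 2 and 3 the difference was -2.78 percentage points, against 2.49 with all 8 libraries. Those 2 libraries stood apart from the other 14, at 69.6 and 58.9 on the first principal component. The number of calls and the median of most gene lists below are therefore also given without them. In bulk tissue, fewer cells of a type and less RNA per cell cannot be told apart.

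In OA cartilage, the genes that rose included the proteases Mmp3 and Mmp10 and 3 CC chemokines. They also included 5 members of a list of lipid-handling macrophage genes and 3 of a fibroblast list. Which cells expressed them was not tested. Genes that fell included the NAD-consuming enzyme Cd38, the kinase Sik1 and the platelet gene Gp5. edgeR called 72 of the 14337 tested genes (0.502%), of which 56 rose (0.391% of all tested) and 16 fell (0.112%). Of the 56 that rose, 32 rose at least 2-fold and 12 at least 4-fold. Of the 16 that fell, 8 fell at least 2-fold and 1 at least 4-fold. For each of the 72, the 4 OA libraries did not overlap with the 4 healthy libraries, and the same was true of 907 tested genes in all (6.33%). The median log2 fold change over all tested genes was 0.01, and 52.1% of them were positive. Without adjustment, 17.8% of the tested genes had a p under 0.05 (10.9% higher and 6.91% lower), and DESeq2 called 2.92%. In each list below with 0 calls by edgeR, limma also called 0, and the counts with an unadjusted p under 0.05 and by DESeq2 are given with the list. Of the 72, 69 were protein-coding.

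The calls rested on single libraries to different degrees. Leaving out OA replicates 1, 2, 3 and 4 in turn gave 1122, 62, 25 and 48 calls, and leaving out healthy replicates 1, 2, 3 and 4 gave 23, 15, 18 and 15. Among these calls were 72, 47, 24 and 35 of the original 72 without an OA library and 21, 15, 17 and 15 without a healthy one. In all 8 of these fits, 10 genes were called, and all 10 rose. They were Stmn2, Trem2, Ccn5, Pdlim4, Fabp5, Crip1, Smpdl3a, Cd300le, Ctsl and Pofut2. Of these, Stmn2, Trem2, Ctsl, Fabp5 and Pdlim4 were called under all 27 alternative settings. For the other called genes, the number of these 8 fits in which the gene was called stands with its values below. With only the 8 compared libraries in the fit, edgeR called 8 genes, all of them higher. Trem2 was among them, whereas Mmp3, Apoe, Ccl7 and Cd38 were not (edgeR adjusted p = 0.0698, 0.0723, 0.0717 and 0.141). All 72 kept their direction under all 27 settings. Where libraries were left out this was largely fixed in advance, because OA and healthy libraries did not overlap for any of the 72.

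**Figure D1:**
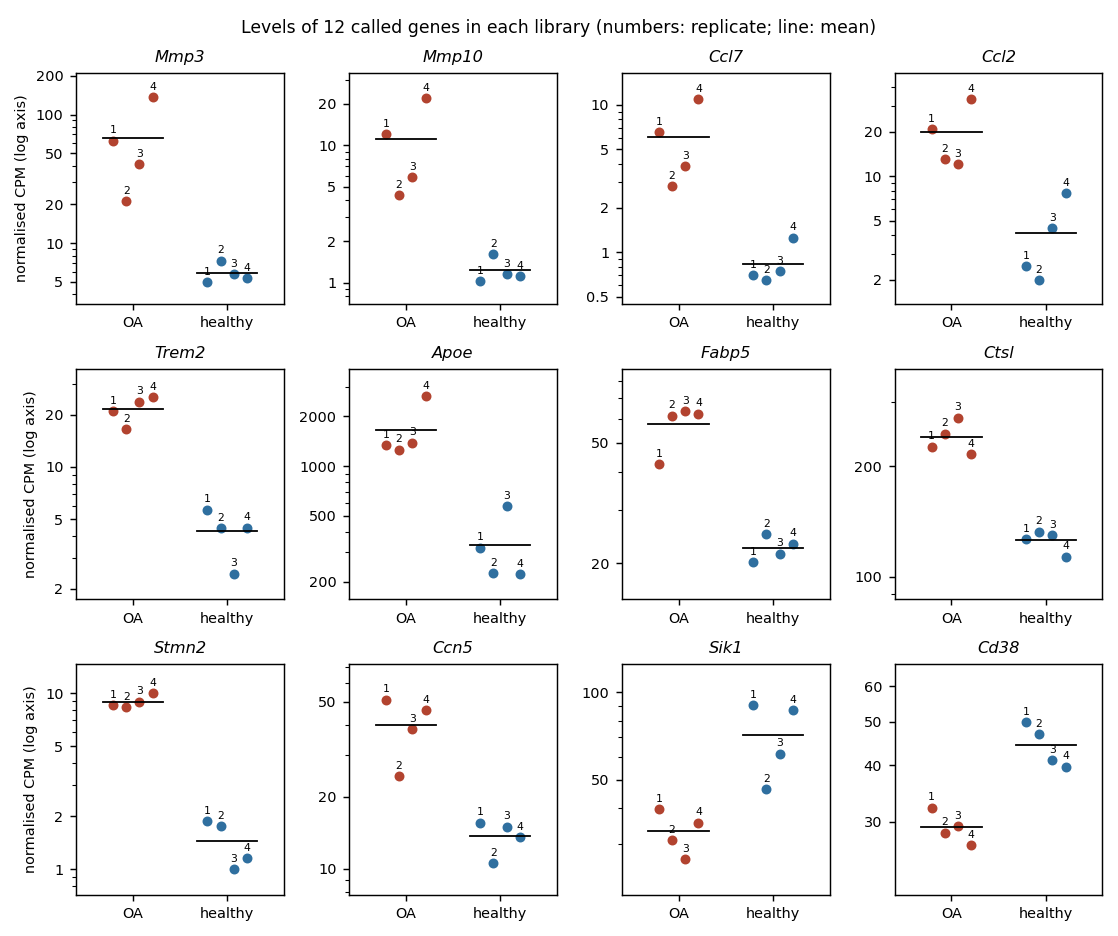
Normalised CPM (log axis) of 12 genes that passed the test, with 1 point per library numbered by replicate and a line at the group mean. In each panel the 4 OA points lie on one side of the 4 healthy points, from Mmp3 at 21.2 to 137 CPM in OA against 4.98 to 7.32 CPM in healthy cartilage to Cd38 at 26.6 to 32.2 against 39.7 to 50.0 CPM.

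The proteases with the largest fold changes among called genes were the stromelysins. Mmp3 (ENSRNOG00000032626, rn6 chr8:5676665-5698579), stromelysin-1, cuts aggrecan and other matrix proteins and activates other MMPs. It had 62.8, 21.2, 41.4 and 137 CPM (counts divided by the normalised library total) in OA replicates 1 to 4, against 4.98, 7.32, 5.71 and 5.31 CPM in healthy replicates 1 to 4. Its log2 fold change was 3.49 ± 0.65 (SE, n = 4 each; edgeR adjusted p = 0.029; called in 3 of the 8 fits that leave out a library). The OA libraries differed among themselves more than the healthy ones did, and replicate 4 was the highest. Mmp10, stromelysin-2, lies next to Mmp3 at chr8:5734348-5742243. It had 12, 4.31, 5.83 and 22.1 CPM in OA replicates 1 to 4, against 1.02, 1.62, 1.16 and 1.11 CPM in healthy replicates 1 to 4 (log2 fold change 3.17 ± 0.67, edgeR adjusted p = 0.0498; called in 2 of the 8). The order of the OA libraries was the same for both genes, with replicates 4 and 1 above replicates 3 and 2.

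No other tested MMP, ADAMTS or TIMP gene passed the test. Of 14 tested MMP genes, 2 rose, 10 had a positive fold change and the median was 0.35 (0.68 without OA replicates 2 and 3). Mmp12, the macrophage elastase, averaged 20.1 ± 9.63 CPM in OA and 2.54 ± 2.70 CPM in healthy cartilage without overlap, and had a log2 difference of 2.98 ± 0.68 (edgeR adjusted p = 0.07). Mmp7, matrilysin, averaged 2.03 ± 2.48 CPM in OA and 0.207 ± 0.0518 CPM in healthy cartilage, and its groups overlapped (3.27 ± 0.99, adjusted p = 0.168). Mmp2, gelatinase A, averaged 281 ± 118 CPM in OA and 136 ± 24.5 CPM in healthy cartilage (adjusted p = 0.126). Mmp13, the collagenase best known for cutting type II collagen, had 836, 588, 647 and 430 CPM in OA replicates 1 to 4, against 1200, 694, 791 and 1220 CPM in healthy replicates 1 to 4 (log2 difference -0.64 ± 0.23, adjusted p = 0.205). Its groups overlapped, and the lowest value was that of OA replicate 4, the library in which both stromelysins were highest. Of 10 tested ADAMTS genes, 0 were called (2 unadjusted, 0 by DESeq2), 6 were positive and the median was 0.20 (0.73 without OA replicates 2 and 3, -0.11 without OA replicate 1 and -0.01 with limma). The aggrecanase gene Adamts4 had 8.87, 4.14, 3.13 and 5.86 CPM in OA replicates 1 to 4, against 5.77, 4.39, 6.41 and 7.47 CPM in healthy replicates 1 to 4 (log2 difference -0.13 ± 0.34, edgeR adjusted p = 0.859). The other aggrecanase gene, Adamts5, had 27.9, 11.2, 11.8 and 21.9 CPM in OA replicates 1 to 4, against 15.3, 13.2, 14.7 and 15.3 CPM in healthy replicates 1 to 4 (0.32 ± 0.25, adjusted p = 0.5). In both, OA replicates 1 and 4 were above OA replicates 2 and 3, and the groups overlapped. Of 11 tested TIMP and other inhibitor genes, 0 were called (4 unadjusted, 1 by DESeq2), 9 were positive and the median was 0.40. Timp1, which blocks most MMPs, had 48.5, 35.9, 39.9 and 61.0 CPM in OA replicates 1 to 4, against 23.3, 27.0, 25.3 and 25.8 CPM in healthy replicates 1 to 4. Its groups did not overlap, and it missed the threshold at an adjusted p of 0.0649.

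The stretches before the start sites of 5 called genes are shown because each stretch holds TGANTCA, a loose form of the AP-1 motif. N is any base, so a match can differ from the strict AP-1 site at that base. Mmp3, Mmp10, Ccl7 and Trem2 rose, and Gp5 fell. AP-1 is a dimer of Fos and Jun proteins, and stromelysin promoters are a textbook place for it. Each stretch runs 120 bases before to 10 bases after the start given by RefSeq on the GRCr8 build, 5′ to 3′ on the gene's strand, with the motif in capitals.
Mmp3 (chr8:12925161-12925290, + strand): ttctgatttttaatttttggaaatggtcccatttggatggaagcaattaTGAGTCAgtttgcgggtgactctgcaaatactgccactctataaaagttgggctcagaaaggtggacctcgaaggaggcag
Mmp10 (chr8:12974587-12974716, + strand): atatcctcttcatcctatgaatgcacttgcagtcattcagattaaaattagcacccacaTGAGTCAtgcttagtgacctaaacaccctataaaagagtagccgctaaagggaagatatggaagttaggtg
Ccl7 (chr10:67513975-67514104, + strand): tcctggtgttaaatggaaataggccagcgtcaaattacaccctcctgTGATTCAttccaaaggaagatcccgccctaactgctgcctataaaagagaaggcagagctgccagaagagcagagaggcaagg
Trem2 (chr9:20151770-20151899, - strand): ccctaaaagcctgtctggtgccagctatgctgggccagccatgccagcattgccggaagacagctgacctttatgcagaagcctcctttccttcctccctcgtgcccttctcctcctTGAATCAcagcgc
Gp5 (chr11:83948387-83948516, + strand): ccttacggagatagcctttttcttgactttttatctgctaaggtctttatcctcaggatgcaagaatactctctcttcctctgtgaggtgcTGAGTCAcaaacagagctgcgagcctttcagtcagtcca

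The motif began 71, 61 and 73 bases before the start in Mmp3, Mmp10 and Ccl7, 29 bases before it in Gp5, and 3 bases before it in Trem2, where it runs across the start. RefSeq gave a window of 250 bases before to 50 after the start for 37 of the 56 genes that rose and for 8 of the 16 that fell. Among these 8 is the Rps27a identifier on chromosome 5. It was given, through the shared symbol, the chromosome 14 windows of the Rps27a identifier that rose, and so had no window of its own. TGANTCA, searched on both strands, was in 6 of the 37 (16.2%; Mmp3, Mmp10, Ccl7, Trem2, Fcgr2a and Anxa2) and in 1 of the 8 (12.5%; Gp5), against 7.33% of all 33465 windows. The letters were TGAGTCA in Mmp3, Mmp10, Anxa2 and Gp5, TGATTCA in Ccl7, and TGAATCA in Trem2 and Fcgr2a. Of 6 other motifs searched on both strands, the cyclic AMP response element TGACGTCA was in 0 of the 37 (1.83% of all windows). Its shorter form TGACGTNA, which also matches every TGACGTCA, was in 1 (3.25%). A NF-kappaB site was in 1, Anxa4 (0.362%). The lysosomal gene element TCACGTGA was in 0 (0.777%), the interferon-stimulated response element in 0 (3.92%) and the E-box CAGGTG in 8 (21.6%, against 18.8%). A called gene counted if any of its windows held the motif, whereas the shares of all windows count single windows, so the shares differ in unit. Counts this small describe the windows searched, and a match is not a bound site.

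3 chemokine genes also rose more than 4-fold, all of them ligands of CC receptors. Ccl7 (chr10:69423086-69424979) had 6.50, 2.81, 3.86 and 11.0 CPM in OA replicates 1 to 4, against 0.703, 0.646, 0.746 and 1.26 CPM in healthy replicates 1 to 4 (log2 fold change 2.84 ± 0.48, edgeR adjusted p = 0.0194; called in 5 of the 8). Ccl2, its neighbour at chr10:69412017-69413870, had 20.9, 13.1, 12.2 and 33.3 CPM in OA replicates 1 to 4, against 2.47, 1.98, 4.48 and 7.66 CPM in healthy replicates 1 to 4 (2.26 ± 0.47, adjusted p = 0.0466; called in 3 of the 8). In both genes OA replicate 4 was the highest and replicate 1 came next, as for the stromelysins, and healthy replicate 4 was the highest of its group. Ccl9, a macrophage chemokine of rodents (chr10:70783424-70788309), had another order, with 7.88, 8.47, 13.0 and 21.2 CPM in OA replicates 1 to 4, against 3.75, 0.817, 1.24 and 1.86 CPM in healthy replicates 1 to 4 (2.72 ± 0.55, adjusted p = 0.0455; called in 3 of the 8). Of 14 tested CC chemokine and receptor genes, these 3 rose, 11 were positive and the median was 0.35 (0.25 without OA replicates 2 and 3). Of 16 tested CXC chemokine and receptor genes, 0 were called (4 unadjusted, 2 by DESeq2) and 8 were positive, with a median of 0.06.

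Classical inflammatory cytokines did not pass the test or were too low to be tested. Of 20 tested genes of the IL-1, TNF and IL-6 families, 0 were called (2 unadjusted, 2 by DESeq2), 14 were positive and the median was 0.19. Il1b had 10.7, 25.0, 27.3 and 20.3 CPM in OA replicates 1 to 4, against 15.9, 7.66, 15.0 and 18.0 CPM in healthy replicates 1 to 4 (log2 difference 0.56 ± 0.32, edgeR adjusted p = 0.362), and the groups overlapped. Il1rn, which encodes the natural blocker of the IL-1 receptor, averaged 60.8 ± 25.6 CPM in OA and 30.3 ± 5.31 CPM in healthy cartilage without overlap (1.0 ± 0.22, adjusted p = 0.0584). Tnfaip6, an anti-inflammatory protein that binds hyaluronan, averaged 8.56 ± 4.01 CPM in OA and 2.61 ± 0.0821 CPM in healthy cartilage, also without overlap (1.71 ± 0.49, adjusted p = 0.146). Il6 was listed at 0 to 1.14 FPKM in OA and 0 to 0.16 FPKM in healthy libraries, Tnf at 0.23 to 0.78 FPKM in OA and 0.20 to 0.63 FPKM in healthy libraries, and neither was tested. Nos2, which makes nitric oxide, had 7.56, 7.07, 8.32 and 17.2 CPM in OA replicates 1 to 4, against 13.5, 8.57, 8.88 and 10.6 CPM in healthy replicates 1 to 4 (-0.05 ± 0.28, adjusted p = 0.936). Ptgs2, the inducible enzyme for prostaglandins, had 5.94, 5.20, 4.24 and 8.74 CPM in OA replicates 1 to 4, against 8.24, 4.09, 6.18 and 11.3 CPM in healthy replicates 1 to 4 (-0.30 ± 0.30, adjusted p = 0.606). The groups overlapped in both.

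Genes with which macrophages sense, carry and break down lipids were among the rises, and which cells expressed them was not tested. Of 20 tested genes of this list, 5 rose (Trem2, Apoe, Fabp5, Lgals3 and Npc2) and 0 fell, with 16 positive and a median of 0.46 (0.35 without OA replicates 2 and 3). With an unadjusted edgeR p under 0.05, 11 were higher and 1 was lower. The log2 differences of the list ran from -2.31 to 2.33, so its members did not all go the same way. Trem2, a lipid receptor of macrophages and osteoclasts (chr9:14611561-14618013), had 20.9, 16.6, 23.7 and 25.1 CPM in OA replicates 1 to 4, against 5.69, 4.47, 2.44 and 4.48 CPM in healthy replicates 1 to 4 (log2 fold change 2.33 ± 0.32, edgeR adjusted p = 0.0115). Apoe, the lipid carrier apolipoprotein E (chr1:80612895-80617057), had 1345, 1259, 1389 and 2639 CPM in OA replicates 1 to 4, against 321, 226, 572 and 221 CPM in healthy replicates 1 to 4 (2.31 ± 0.36, adjusted p = 0.0115; called in 6 of the 8). The OA values of Trem2 lay close together, whereas those of Apoe were even but for the higher replicate 4. Fabp5, which binds fatty acids inside the cell, had 42.4, 61.4, 63.6 and 62.3 CPM in OA replicates 1 to 4, against 20.2, 25.0, 21.5 and 23.2 CPM in healthy replicates 1 to 4 (1.35 ± 0.21, adjusted p = 0.0115). Here OA replicate 1 was the low one. Lgals3, galectin-3, had 126, 156, 150 and 214 CPM in OA replicates 1 to 4, against 88.0, 79.5, 62.6 and 68.7 CPM in healthy replicates 1 to 4 (1.11 ± 0.19, adjusted p = 0.0218; called in 5 of the 8).

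Among genes of lysosomal proteins, Ctsl and Smpdl3a were called in all 8 fits that leave out a library. Ctsl, the cysteine protease cathepsin L (chr17:1872848-1879279), had 226, 246, 272 and 216 CPM in OA replicates 1 to 4, against 126, 133, 130 and 113 CPM in healthy replicates 1 to 4 (log2 fold change 0.93 ± 0.13, edgeR adjusted p = 0.0115). Smpdl3a, a phosphodiesterase related to acid sphingomyelinase, had 136, 176, 187 and 235 CPM in OA replicates 1 to 4, against 101, 88.7, 75.2 and 84.0 CPM in healthy replicates 1 to 4 (1.07 ± 0.16, adjusted p = 0.0115). The OA libraries lay closer together for Ctsl than for Smpdl3a. Npc2, which moves cholesterol out of the lysosome, rose by 0.66 ± 0.13, and Dpp7, a peptidase of intracellular vesicles, by 0.53 ± 0.10 (adjusted p = 0.0413 and 0.0254; called in 1 and 4 of the 8). Of 13 tested cathepsins, Ctsl alone was called, 9 were positive and the median was 0.18 (0.07 without OA replicates 2 and 3). Cathepsins S, D and B (Ctss, Ctsd and Ctsb) were higher without overlap but did not pass, with log2 differences of 0.85, 0.52 and 0.47 (adjusted p = 0.0708, 0.0956 and 0.2). Ctsk, the collagen-cutting cathepsin K of osteoclasts, was lower without overlap and did not pass either, at 818 ± 81.9 CPM in OA and 1065 ± 232 CPM in healthy cartilage (-0.38 ± 0.26, adjusted p = 0.448).

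Single genes of myeloid cell proteins passed the test, whereas the general macrophage markers did not. Cd300le, an activating receptor of myeloid cells, had 28.6, 38.9, 45.4 and 49.0 CPM in OA replicates 1 to 4, against 21.6, 19.9, 15.7 and 20.3 CPM in healthy replicates 1 to 4 (log2 fold change 1.06 ± 0.17, edgeR adjusted p = 0.0115). Scimp, a membrane adaptor in cells that present antigen, had 6.21, 9.31, 7.49 and 21.0 CPM in OA replicates 1 to 4, against 2.75, 1.71, 2.55 and 2.30 CPM in healthy replicates 1 to 4 (2.24 ± 0.40, adjusted p = 0.0254; called in 4 of the 8). In the same direction went the inhibitory receptor Lilrb4 (1.18 ± 0.25), the immunoglobulin Fc receptor Fcgr2a (0.90 ± 0.17), the actin-capping protein Capg (0.55 ± 0.11) and the endosomal GTPase Rab7b (1.38 ± 0.27), with adjusted p between 0.0329 and 0.0498. Lilrb4 and Rab7b were called in 2 of the 8 each, and Fcgr2a and Capg in 1 each. Fcgr2a overlaps on the chromosome with LOC108348047, which also rose (0.83 ± 0.15; called in 2 of the 8). LOC108348047 lies within the span of Fcgr2a on the same strand, so the reads of these genes may not be fully separate. Of 20 tested macrophage markers, 0 were called (6 unadjusted, 3 by DESeq2) and 12 were positive, with a median of 0.09 (-0.04 with limma). Their summed share of the counts was 0.122% to 0.186% in OA and 0.137% to 0.185% in healthy libraries. The pan-macrophage markers Cd68 and Csf1r and the surface marker Adgre1 had log2 differences of 0.32 ± 0.20, -0.01 ± 0.19 and -0.15 ± 0.23 (adjusted p = 0.41, 0.974 and 0.749). The monocyte receptors Cd14 and Cx3cr1 and the Fc receptor Fcgr2b were higher without overlap and did not pass, with 1.04 ± 0.26, 1.06 ± 0.26 and 0.57 ± 0.18 (adjusted p = 0.0906, 0.0862 and 0.177). Folr2, the folate receptor of tissue macrophages, overlapped at 0.94 ± 0.24 (adjusted p = 0.0999). Cd68 averaged 167 ± 61.1 CPM in OA and 134 ± 11.3 CPM in healthy cartilage. The share of the lipid-handling list was 0.498% to 0.772% in OA and 0.351% to 0.387% in healthy libraries. Apoe, a member of that list, averaged 1658 ± 656 CPM in OA and 335 ± 164 CPM in healthy cartilage. The list was chosen with earlier results of these data known. The neutrophil markers, of which 0 of 16 were called (5 unadjusted, 1 by DESeq2), had a median of 0.25, and of 0.03 without OA replicates 2 and 3.

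**Figure D2:**
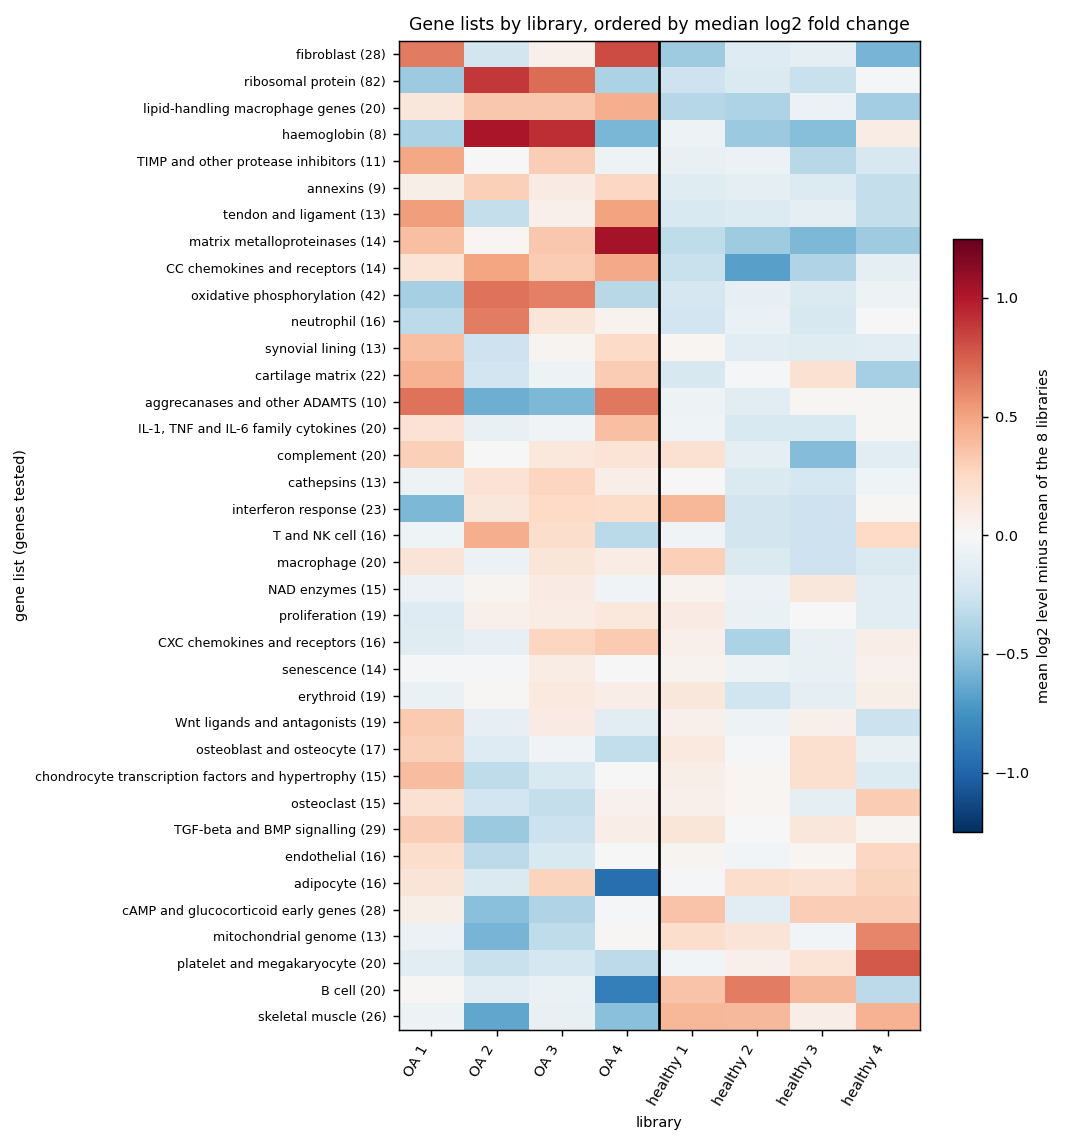
Mean log2 level of each gene list in each library, relative to the mean of the 8 libraries, with OA libraries left of the line, lists ordered by median log2 fold change and the number of tested genes in brackets. The lipid-handling list lay between 0.14 and 0.45 in OA and between -0.44 and -0.08 in healthy libraries. The ribosomal protein list was high (0.88 and 0.70) in OA replicates 2 and 3 and low (-0.45 and -0.39) in OA replicates 1 and 4. All lists were chosen with earlier results of these data known.

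Of 28 tested fibroblast genes, 3 rose (Dpt, Mfap5 and Cthrc1), 0 fell and 27 were positive, with a median of 0.54 (0.97 without OA replicates 2 and 3). Dpt, dermatopontin, which helps collagen fibrils to form, had 112, 62.2, 105 and 83.9 CPM in OA replicates 1 to 4, against 29.2, 48.2, 41.1 and 32.6 CPM in healthy replicates 1 to 4 (log2 fold change 1.26 ± 0.26, edgeR adjusted p = 0.0466; called in 2 of the 8). Mfap5, a protein of elastic microfibrils, had 19.6, 19.5, 25.7 and 23.9 CPM in OA replicates 1 to 4, against 12.4, 11.1, 9.55 and 9.67 CPM in healthy replicates 1 to 4 (1.06 ± 0.20, adjusted p = 0.029; called in 2 of the 8). The gene for another microfibril protein, listed as LOC102553715, rose by 2.21 ± 0.40 (adjusted p = 0.0266; called in 3 of the 8), and was highest in OA replicates 1 and 4 at 28.0 and 31.1 CPM. Cthrc1, a secreted collagen triple helix repeat protein, had 21.6, 20.9, 28.6 and 35.8 CPM in OA replicates 1 to 4, against 12.5, 16.7, 13.7 and 10.4 CPM in healthy replicates 1 to 4 (1.0 ± 0.20, adjusted p = 0.0421; called in 2 of the 8). Col3a1, type III collagen of fibrous tissue, averaged 2937 ± 1390 CPM in OA and 996 ± 216 CPM in healthy cartilage without overlap and did not pass (1.56 ± 0.37, adjusted p = 0.0741). The summed share of the fibroblast list was 3.08%, 0.975%, 1.16% and 3.38% in OA replicates 1 to 4 and 1.29% to 2.05% in healthy libraries, so that it overlapped. Tendon and ligament genes had a median of 0.36 (0.79 without OA replicates 2 and 3) with 12 of 13 positive and 0 called (7 unadjusted, 2 by DESeq2). The part of tendon and ligament in the fibroblast counts was not tested.

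Several called genes encode secreted proteins or enzymes of the secretory pathway. Pofut2, which adds O-fucose to thrombospondin repeats, had 42.4, 44.8, 46.2 and 48.8 CPM in OA replicates 1 to 4, against 28.8, 28.9, 33.3 and 26.9 CPM in healthy replicates 1 to 4 (log2 fold change 0.63 ± 0.09, edgeR adjusted p = 0.0115). P4ha3, a collagen prolyl hydroxylase subunit, rose by 0.74 ± 0.14, Rcn3, a calcium-binding protein of the secretory pathway, by 0.47 ± 0.10, and Vkorc1, which recycles vitamin K, by 0.74 ± 0.13 (adjusted p = 0.029, 0.0466 and 0.0194; called in 2, 1 and 5 of the 8). Ccn5, a matricellular protein of the CCN family (chr3:160207913-160219331), had 51.1, 24.4, 38.3 and 46.3 CPM in OA replicates 1 to 4, against 15.6, 10.5, 15.0 and 13.5 CPM in healthy replicates 1 to 4 (1.55 ± 0.24, adjusted p = 0.0115). Sfrp4, a secreted antagonist of Wnt ligands, had 85.1, 76.1, 86.8 and 96.4 CPM in OA replicates 1 to 4, against 52.0, 39.1, 45.6 and 41.7 CPM in healthy replicates 1 to 4 (0.95 ± 0.17, adjusted p = 0.0224; called in 5 of the 8). These 2 were the called members of 19 tested Wnt ligand and antagonist genes, of which 9 were positive and the median was -0.01. Sfrp2 and Dkk3, other secreted modulators of Wnt signalling, were higher without overlap and did not pass (1.0 ± 0.23 and 0.68 ± 0.18, adjusted p = 0.0708 and 0.105). Of 29 tested TGF-beta and BMP signalling genes, 0 were called (5 unadjusted, 1 by DESeq2) and 9 were positive, with a median of -0.07 (0.07 without OA replicates 2 and 3). C1s, the protease that starts the classical complement cascade, had 229, 126, 178 and 240 CPM in OA replicates 1 to 4, against 110, 89.0, 74.2 and 68.9 CPM in healthy replicates 1 to 4 (1.18 ± 0.24, adjusted p = 0.0466; called in 2 of the 8), and was the only 1 of 20 tested complement genes to be called.

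All 9 tested annexins, which bind phospholipids in the presence of calcium, were positive, and 3 rose, with a median of 0.39 (0.17 without OA replicates 2 and 3). Anxa5, which matrix vesicles of mineralising cartilage carry, had 163, 124, 124 and 211 CPM in OA replicates 1 to 4, against 89.6, 78.4, 78.7 and 71.6 CPM in healthy replicates 1 to 4 (log2 fold change 0.97 ± 0.20, edgeR adjusted p = 0.0498; called in 2 of the 8). Anxa4 had 92.6, 81.7, 89.9 and 114 CPM in OA replicates 1 to 4, against 59.5, 64.9, 57.8 and 54.1 CPM in healthy replicates 1 to 4 (0.68 ± 0.14, adjusted p = 0.0466; called in 2 of the 8). Anxa2 had 329, 472, 374 and 448 CPM in OA replicates 1 to 4, against 255, 279, 264 and 274 CPM in healthy replicates 1 to 4 (0.60 ± 0.12, adjusted p = 0.033; called in 1 of the 8). OA replicate 4 was the highest for Anxa5 and Anxa4, and OA replicate 2 for Anxa2. S100a10, the partner of annexin A2 on the cell surface, rose by 0.84 ± 0.17 (adjusted p = 0.0466; called in 1 of the 8). Stmn2, a regulator of microtubules best known from neurons (chr2:95424251-95472115), had 8.56, 8.30, 8.96 and 10.0 CPM in OA replicates 1 to 4, against 1.87, 1.75, 1.0 and 1.15 CPM in healthy replicates 1 to 4 (2.63 ± 0.37, adjusted p = 0.0115). Its OA values stayed within 8.30 to 10.0 CPM. Pdlim4, which binds actin fibres, had 20.1, 15.6, 17.0 and 24.1 CPM in OA replicates 1 to 4, against 7.41, 6.56, 6.25 and 8.09 CPM in healthy replicates 1 to 4 (1.44 ± 0.21, adjusted p = 0.0115). Crip1, a LIM domain protein, had 66.3, 133, 118 and 77.1 CPM in OA replicates 1 to 4, against 37.0, 45.9, 39.2 and 41.2 CPM in healthy replicates 1 to 4 (1.27 ± 0.20, adjusted p = 0.0115). Its highest values were in OA replicates 2 and 3, and its log2 fold change was 0.81 without them.

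The other rises had varied roles. Crabp2, a carrier of retinoic acid, had 8.13, 14.1, 15.1 and 11.1 CPM in OA replicates 1 to 4, against 4.22, 4.01, 3.60 and 2.41 CPM in healthy replicates 1 to 4 (log2 fold change 1.76 ± 0.32, edgeR adjusted p = 0.0254; called in 3 of the 8), and another identifier in the table has the same symbol. Rarres2 encodes the chemoattractant chemerin and rose by 1.19 ± 0.22 (adjusted p = 0.0296; called in 3 of the 8), and Lgals1, galectin-1, rose by 0.88 ± 0.18 (adjusted p = 0.0466; called in 1 of the 8). The transcription factor Snai2, a repressor of epithelial genes, rose by 0.97 ± 0.18 (adjusted p = 0.029; called in 3 of the 8). Card14, a scaffold of NF-kappaB signalling, rose by 2.13 ± 0.42 (adjusted p = 0.038; called in 3 of the 8), with 17.0, 7.41, 5.69 and 34.8 CPM in OA replicates 1 to 4, against 3.70, 3.44, 3.81 and 3.84 CPM in healthy replicates 1 to 4. As for the stromelysins, OA replicates 4 and 1 lay above OA replicates 2 and 3. Gpx7, a peroxidase of the endoplasmic reticulum, rose by 0.87 ± 0.14 and Pid1, an adaptor that binds lipoprotein receptors in humans, by 1.18 ± 0.19 (adjusted p = 0.0115 each; called in 7 of the 8 each). The remaining rises were Sectm1b (3.00), Steap1 (1.64), Angptl1 (1.35), RGD1559482 (1.31), Arl11 (0.99), Cdc42ep5 (0.95), Rras (0.74), Metrnl (0.71), Nagk (0.68) and Ptpro (0.59), given as log2 fold changes. Each was called in 1 to 5 of the 8.

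Fewer genes fell, and 8 of the 16 by less than 2-fold. Cd38, a surface enzyme that consumes NAD and is carried by many blood cells (chr14:71715269-71754672), had 32.2, 28.4, 29.3 and 26.6 CPM in OA replicates 1 to 4, against 50.0, 46.9, 41.0 and 39.7 CPM in healthy replicates 1 to 4 (log2 fold change -0.61 ± 0.09, edgeR adjusted p = 0.0115; called in 7 of the 8). It was the only 1 of 15 tested NAD enzyme genes to be called, 10 of which were positive, with a median of 0.06. Sik1, a salt-inducible kinase that cyclic AMP switches on, had 39.5, 30.8, 26.6 and 35.5 CPM in OA replicates 1 to 4, against 90.5, 46.4, 61.5 and 86.6 CPM in healthy replicates 1 to 4 (-1.10 ± 0.23, adjusted p = 0.0466; called in 2 of the 8). Arrdc3, an arrestin-domain adaptor of receptors, had 36.8, 33.3, 31.3 and 44.6 CPM in OA replicates 1 to 4, against 75.1, 58.8, 55.8 and 63.6 CPM in healthy replicates 1 to 4 (-0.79 ± 0.14, adjusted p = 0.0264; called in 3 of the 8). Both belong to a list of 28 tested genes that cyclic AMP or glucocorticoids induce early, of which 2 fell, 0 rose and 9 were positive, with a median of -0.23 (-0.08 without OA replicates 2 and 3). The clock gene Per1 of that list averaged 35.8 ± 11.2 CPM in OA and 92.9 ± 15.7 CPM in healthy cartilage without overlap and did not pass (-1.38 ± 0.37, adjusted p = 0.117).

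Among the other falls, Adgrg1, an adhesion receptor, had 40.5, 26.4, 30.5 and 30.1 CPM in OA replicates 1 to 4, against 48.1, 52.2, 48.3 and 54.9 CPM in healthy replicates 1 to 4 (log2 fold change -0.67 ± 0.13, edgeR adjusted p = 0.0371; called in 1 of the 8). Csrnp1, a nuclear protein, had 23.7, 18.8, 19.6 and 17.3 CPM in OA replicates 1 to 4, against 29.5, 29.5, 27.6 and 28.8 CPM in healthy replicates 1 to 4 (-0.54 ± 0.11, adjusted p = 0.0466; called in 1 of the 8). For both genes OA replicate 1 lay nearest to the healthy libraries. Plekha2, which binds membrane phosphoinositides, had 125, 95.5, 107 and 96.1 CPM in OA replicates 1 to 4, against 160, 172, 154 and 134 CPM in healthy replicates 1 to 4 (-0.55 ± 0.11, adjusted p = 0.0371; called in 1 of the 8). Nlk, the nemo-like kinase that restrains Wnt signalling, fell by 0.49 ± 0.10 (adjusted p = 0.0371; called in 1 of the 8). The low-expressed genes Gpr171, a G protein-coupled receptor, and Foxc2, a transcription factor of mesoderm, fell by 1.14 ± 0.19 and 1.34 ± 0.26 (adjusted p = 0.016 and 0.033; called in 6 and 1 of the 8). AC127920.1 and AABR07046707.1 fell by 1.05 and 0.67 (called in 1 and 2 of the 8). AC093995.1, for which the table gives no description, had 0, 0, 0 and 0.239 CPM in OA replicates 1 to 4, against 0.575, 1.20, 0.849 and 1.02 CPM in healthy replicates 1 to 4, and was called in 4 of the 8.

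Genes of platelets, B cells and skeletal muscle were mostly negative, and those of other blood cells were not. All 8 tested haemoglobin genes were positive, with 0 called (2 unadjusted, 1 by DESeq2) and a median of 0.46, which was -0.26 without OA replicates 2 and 3. Other erythroid genes were positive in 12 of 19, with 0 called (1 unadjusted, 1 by DESeq2) and a median of 0.01, and the neutrophil markers in 14 of 16. Gp5, a subunit of the platelet receptor for von Willebrand factor, had 28.0, 17.8, 18.8 and 16.8 CPM in OA replicates 1 to 4, against 32.7, 29.6, 34.7 and 46.2 CPM in healthy replicates 1 to 4 (log2 fold change -0.81 ± 0.17, edgeR adjusted p = 0.0498; called in 1 of the 8). It was the only 1 of 20 tested platelet and megakaryocyte genes to be called, and 2 of the 20 were positive (median -0.52, and -0.50 without OA replicates 2 and 3). The summed share of the platelet list was 0.147% to 0.236% in OA and 0.226% to 0.345% in healthy libraries, and its markers Itga2b and Gp1ba had log2 differences of -0.70 ± 0.19 and -0.83 ± 0.21 (adjusted p = 0.125 and 0.0999). Of 20 tested B cell genes, 0 were called (12 unadjusted, 3 by DESeq2) and 2 were positive (median -0.53, and -0.66 without OA replicates 2 and 3). The B cell factor Pax5 averaged 8.32 ± 3.76 CPM in OA and 17.0 ± 1.68 CPM in healthy cartilage (-1.03 ± 0.24, adjusted p = 0.0736). Of 26 tested skeletal muscle genes, 0 were called (8 unadjusted, 0 by DESeq2) and 1 was positive (median -0.67, and -0.59 without OA replicates 2 and 3). Muscle genes took 0.906%, 0.457%, 0.615% and 0.646% of the counts in OA replicates 1 to 4, against 1.27%, 1.12%, 0.902% and 1.09% in healthy replicates 1 to 4, so that only OA replicate 1 reached the healthy range. The part of muscle, platelets or B cells in the falls of single genes was not tested.

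The genes that define cartilage itself did not pass the test. Of 22 tested cartilage matrix genes, 0 were called (4 unadjusted, 1 by DESeq2) and 19 were positive, with a median of 0.20 (0.52 without OA replicates 2 and 3). Col2a1 had 2795, 1086, 1230 and 2706 CPM in OA replicates 1 to 4, against 1600, 1812, 2649 and 1200 CPM in healthy replicates 1 to 4 (log2 difference 0.11 ± 0.32, edgeR adjusted p = 0.876). Acan, aggrecan, had 278, 79.8, 101 and 295 CPM in OA replicates 1 to 4, against 168, 181, 234 and 111 CPM in healthy replicates 1 to 4 (0.12 ± 0.35, adjusted p = 0.873). In both genes OA replicates 1 and 4 lay above every healthy library, and OA replicates 2 and 3 were the lowest of the 8 libraries but for healthy replicate 4 in Col2a1, which lay between them. Col1a1, type I collagen of bone and fibrous tissue, showed the same division, with 13890, 5474, 5425 and 15644 CPM in OA replicates 1 to 4, against 7725, 8216, 12390 and 8014 CPM in healthy replicates 1 to 4 (0.15 ± 0.32, adjusted p = 0.813). Prg4, the joint lubricant lubricin, had 1081, 301, 403 and 868 CPM in OA replicates 1 to 4, against 421, 340, 285 and 356 CPM in healthy replicates 1 to 4 (0.92 ± 0.37, adjusted p = 0.228). Comp, which links collagen fibrils, was higher without overlap, at 527, 305, 382 and 399 CPM in OA replicates 1 to 4, against 218, 270, 274 and 198 CPM in healthy replicates 1 to 4, and did not pass (0.75 ± 0.22, adjusted p = 0.166).

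Regulators and markers of hypertrophy, the enlarged state of chondrocytes before bone forms, also did not pass. Col10a1, the collagen of hypertrophic chondrocytes, had 220, 91.9, 95.4 and 190 CPM in OA replicates 1 to 4, against 159, 166, 235 and 30.7 CPM in healthy replicates 1 to 4 (log2 difference 0.02 ± 0.46, edgeR adjusted p = 0.989). Healthy replicate 4 was far below the other healthy libraries for this gene. Sox9 had 10.6, 2.64, 4.24 and 4.92 CPM in OA replicates 1 to 4, against 6.43, 7.13, 12.8 and 6.70 CPM in healthy replicates 1 to 4 (-0.56 ± 0.33, adjusted p = 0.383). Runx2, the factor that drives hypertrophy, had 72.1, 38.8, 46.5 and 57.8 CPM in OA replicates 1 to 4, against 73.5, 62.2, 62.5 and 69.7 CPM in healthy replicates 1 to 4 (-0.32 ± 0.14, adjusted p = 0.268). In both, OA replicate 1 lay within the healthy range and the other OA libraries below it. The standard errors of Col2a1, Acan and Col10a1 were 0.32, 0.35 and 0.46, against 0.13 for Ctsl.

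**Figure D3:**
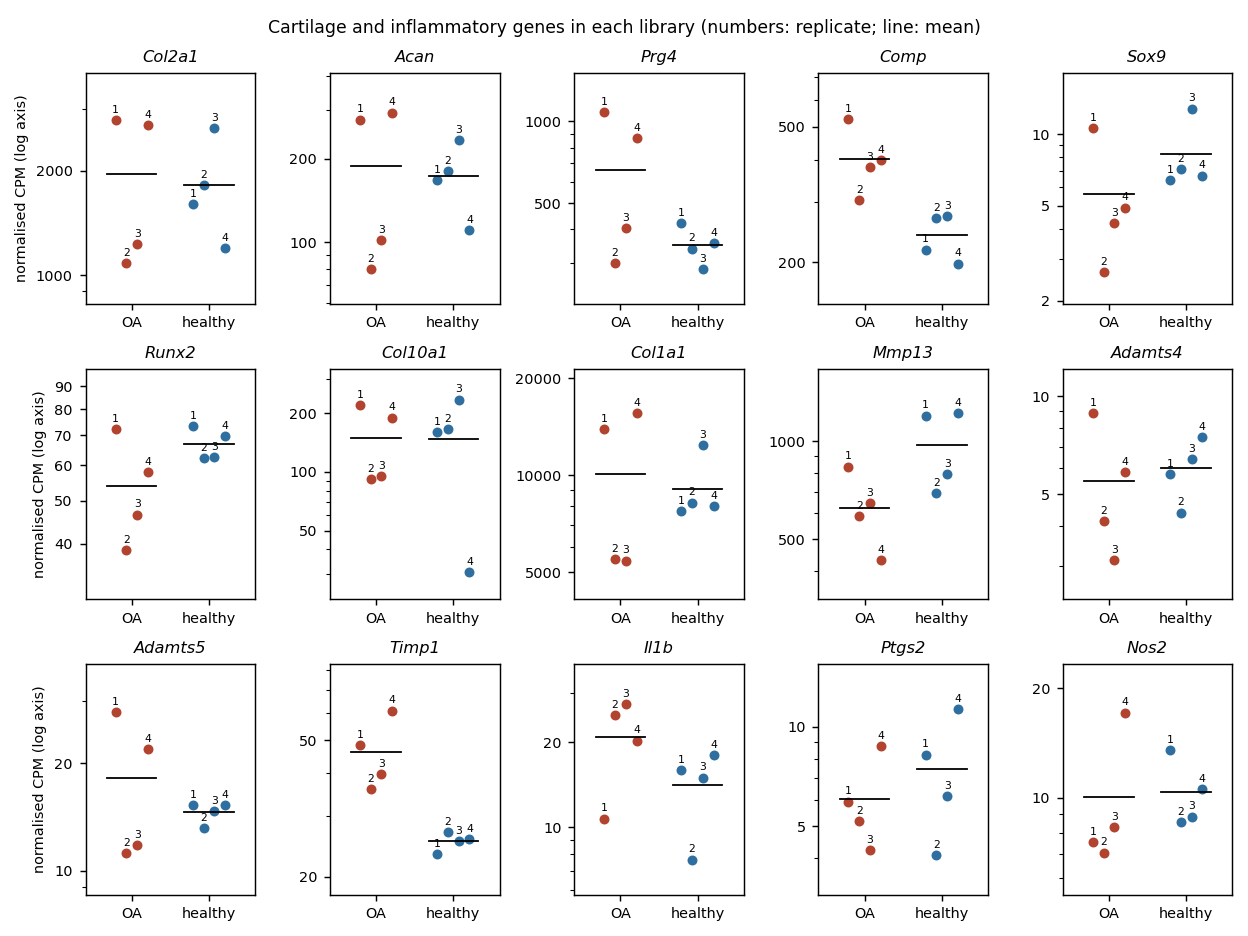
Normalised CPM (log axis) of 15 cartilage and inflammatory genes named whatever their p, with 1 point per library numbered by replicate and a line at the group mean. OA replicates 1 and 4 are high and OA replicates 2 and 3 low for Col2a1, Acan, Col1a1 and Adamts5, and only Comp and Timp1 show no overlap between OA and healthy libraries.

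Housekeeping genes of translation and respiration followed the division among OA libraries. Of 82 tested ribosomal protein genes, 77 were positive with a median of 0.47, which was -0.29 without OA replicates 2 and 3. Their summed share was 2.46%, 5.19%, 4.70% and 2.53% in OA replicates 1 to 4 and 2.65% to 3.11% in healthy libraries. The 2 calls in that list were a pair of identifiers for Rps27a that went opposite ways. The one on chr14:113966611-113968268 had 247, 884, 803 and 270 CPM in OA replicates 1 to 4, against 240, 99.1, 130 and 93.2 CPM in healthy replicates 1 to 4 (log2 fold change 1.97 ± 0.41, edgeR adjusted p = 0.0479; called in 3 of the 8). The one on chr5:138628482-138629026 had 65.5, 118, 123 and 119 CPM in OA replicates 1 to 4, against 151, 406, 296 and 429 CPM in healthy replicates 1 to 4 (-1.59 ± 0.32, adjusted p = 0.043; called in 2 of the 8). Both are uncertain, since reads of near-identical copies can be divided between identifiers. Of 42 tested nuclear genes of oxidative phosphorylation, 39 were positive with a median of 0.33, which was -0.19 without OA replicates 2 and 3, and 0 were called (12 unadjusted, 1 by DESeq2).

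Genes of the mitochondrial genome had negative log2 differences, with and without those 2 libraries. All 13 of its protein-coding genes had a negative log2 difference, with 0 called (10 unadjusted, 1 by DESeq2) and a median of -0.46 (-0.29 without OA replicates 2 and 3). They took 3.95%, 2.42%, 2.92% and 4.27% of the counts in OA replicates 1 to 4, against 4.56%, 4.80%, 4.18% and 6.07% in healthy replicates 1 to 4, so that only OA replicate 4 reached the healthy range. Of 20 tested mitochondrial transfer RNA genes, 19 were negative and 2 were called, with a median of -0.62 (-0.55 without OA replicates 2 and 3). The 2 called, AY172581.7 and AY172581.10, lie side by side on the mitochondrial chromosome at 5256 to 5321 and 5185 to 5252. AY172581.7 had 4.82, 2.44, 3.77 and 5.21 CPM in OA replicates 1 to 4, against 8.35, 10.2, 7.59 and 11.7 CPM in healthy replicates 1 to 4 (log2 fold change -1.22 ± 0.22, edgeR adjusted p = 0.0273; called in 4 of the 8), and AY172581.10 fell by 1.04 ± 0.20 (called in 2 of the 8). The libraries were selected for poly(A) RNA, so transfer RNAs were not a target of the assay.

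The OA libraries differed in how far they moved. Among the 56 genes that rose, OA replicate 4 was the highest OA library for 31 (55.4%) and replicate 1 for 3, whereas over all tested genes these shares were 26.0% for each. Replicate 1 was the lowest for 24 of the 56 (42.9%) and replicate 2 for 19. Without OA replicates 2 and 3, 164 genes were called, 151 higher and 13 lower, of which 40 were among the original 72 (36 of the 56 higher and 4 of the 16 lower). Without them, 30 of the 56 genes that rose and 2 of the 16 that fell had a larger fold change. The median log2 fold change went from 1.09 to 1.06 for the 56, and from -0.93 to -0.69 for the 16. Mmp3, Mmp10 and Ccl7 then had log2 fold changes of 4.08, 3.78 and 3.37, and Trem2, Stmn2 and Cd38, at 2.42, 2.67 and -0.60, moved little.

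**Figure D4:**
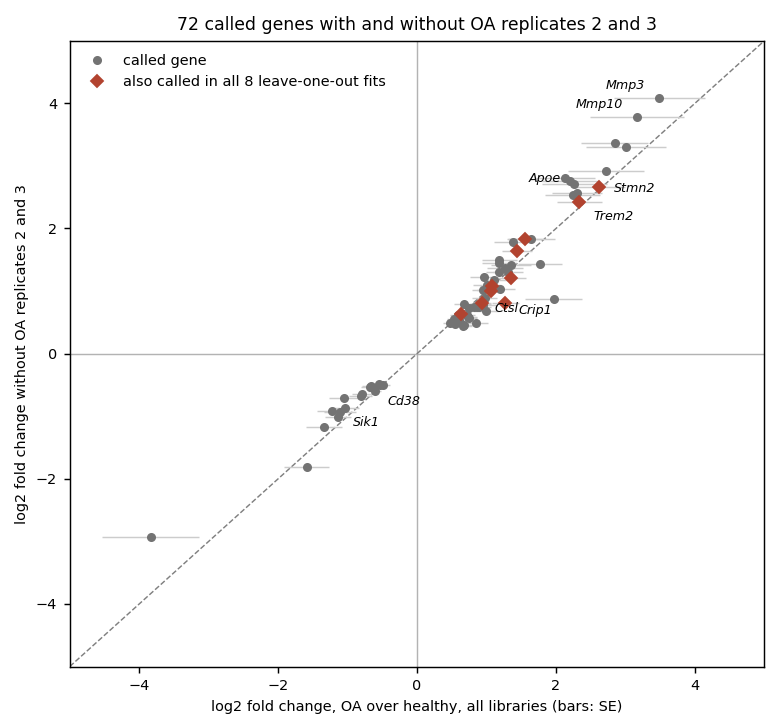
Log2 fold change (OA over healthy) of the 72 called genes with all libraries (horizontal, bars are SE) and without OA replicates 2 and 3 (vertical), with the 10 genes called in every fit that leaves out 1 of the 8 libraries as diamonds and the line of equality dashed. No gene changed sign, which groups without overlap largely fix in advance. Mmp3 and Mmp10 lie above the line, and Crip1 lies below it at 1.27 against 0.81.

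**Figure D5:**
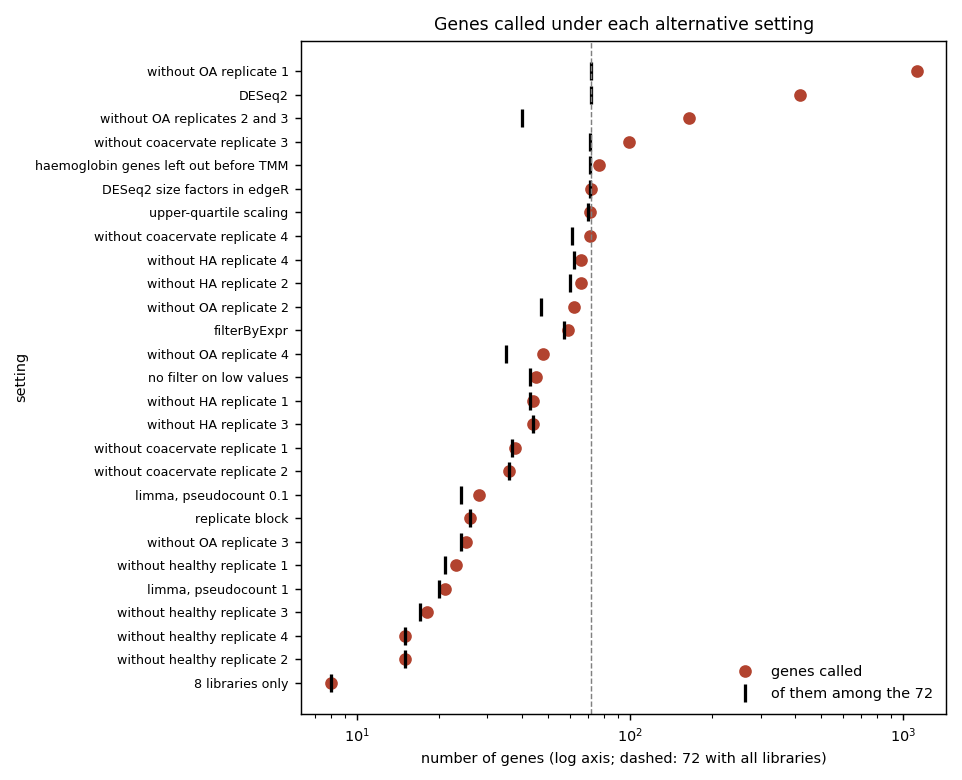
Number of genes called (log axis, points) under each of 27 alternative settings and how many of them belong to the original 72 (ticks), with the dashed line at 72. The count ran from 8 with only the 8 libraries in the fit to 1122 without OA replicate 1.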

How the data were processed

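RNA from knee cartilage of rats was selected with oligo(dT), converted to stranded libraries and sequenced from both ends, per the labels' protocols. Per the submitters' processing notes, the genome build was rn6 and the tools included HISAT2 2.2.1, StringTie 2.1.6, cutadapt 1.9, edgeR and DESeq2. The counting tool, annotation version and strand setting are not given in the sources used here. Per the file headers, each gene of the deposited table has a count and an FPKM in every library. The deposited counts are whole numbers whose totals differ between libraries. FPKM, which the authors computed by scaling to gene length and depth, served here to filter genes and to state levels per length. Low counts were more often 2 than 3 (6480 against 4576 values), as if mates were counted singly, in which case counting error is larger than the counts imply.

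Counts were fitted with edgeR's quasi-likelihood test (edgeR 4.0.16, R 4.3.3) in 1 model with a mean for each of the 4 groups of 16 libraries and TMM scaling. The contrast was osteoarthritic minus healthy, and p-values were adjusted by Benjamini and Hochberg over all 14337 genes at a threshold of 0.05. Log2 levels used a prior count of 2. An exact permutation test was used for the haemoglobin share only. Gene lists (37) are described by counts and medians. Genes, lists and tests were chosen with earlier results of these data known. Values in every library were given for the 12 largest rises and 8 largest falls among called genes whose mean FPKM reached 5 in the higher of the groups, with a symbol that is not a placeholder, for called members of lists (up to 4 per list), for genes called in all 8 fits that leave out a library of either group, and for a panel of 17 cartilage and inflammatory genes. A further panel gene, with the list that held it, is not reported here. LOC102553715, Card14, AC093995.1, AY172581.7 and the members of lists that did not pass were given values outside this rule, after their values were seen. Of the called genes, 3 share a symbol with another identifier. Alternatives were other scalings, filters and tools (limma 3.58.1, DESeq2 1.42.0), a replicate block and libraries left out. The procedure was tested on simulated counts, which did not hold the division among the OA libraries. It recovered 28.4%, 50.7% and 93.9% of changes of 1.5-fold, 2-fold and 4-fold, and 6.5% of its calls were false. Genes that missed the threshold are not shown to be the same in both groups. Promoter windows are RefSeq's (GRCr8).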

Additional observations from a re-analysis of the deposited data

Results flagged for a closer look

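In each group of 4 libraries, the gap between the outermost library and its nearest neighbour was compared with the range of the group. The gap exceeded Dixon's critical value for 4 libraries in 11 of 180 groups tested. Chance gives about 1 in 20 groups, or 5%. No explanation was tested for any of the 11.

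Among OA libraries, the gap took 0.867 of the range for Apoe, where replicate 4 had 2640 CPM and the others 1260 to 1390 CPM. It took 0.913 for Fabp5, where replicate 1 had 42.4 CPM and the others 61.4 to 63.6 CPM. It took 0.944 for the Rps27a identifier on chromosome 5, where replicate 1 had 65.5 CPM and the others 118 to 123 CPM. The interferon response genes had a mean log2 level of -0.559 in OA replicate 1 and of 0.143 to 0.246 in the other OA libraries (0.873 of the range). The senescence genes stood at 0.093 in OA replicate 3 and at -0.0143 to 0.00277 in the others (0.841). OA replicate 1 was the outlying library in 3 of these 5.

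Among healthy libraries, replicate 3 stood apart for Sox9 (0.85 of the range, 12.8 CPM against 6.43 to 7.13 CPM) and Col1a1 (0.869, 12400 CPM against 7720 to 8220 CPM). It also stood apart for the muscle genes (0.92, mean log2 level 0.081 against 0.404 to 0.432). Replicate 1 was high for the macrophage markers (0.85, 0.294 against -0.264 to -0.18) and for synovial lining genes (0.871, 0.0276 against -0.154 to -0.13). Replicate 2 was low for the genes that cyclic AMP and glucocorticoids induce early (0.899, -0.127 against 0.304 to 0.352).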

How the results depend on the processing

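The count of 72 genes (56 higher, 16 lower) moved with the processing, and causes were not tested. It was 45 (7 lower) with no filter on low values, 59 (9 lower) with filterByExpr, 418 (279 higher, 139 lower) with DESeq2, 21 (13 higher, 8 lower) and 28 (16 higher) with limma at pseudocounts of 1 and 0.1, and 8 (8 higher, 0 lower) with only the 8 libraries in the fit. Same-numbered OA and healthy libraries did not deviate together (correlations -0.148 to 0.0198). So few pairs cannot show whether the numbers pair the libraries, and the labels do not say. With the number as a replicate block the count was 26 (23 higher, 3 lower). Without OA replicates 2 and 3 it was 164 (151 higher). Leaving out 1 of the 8 libraries gave 15 to 1122 calls (13 to 764 higher, 1 to 358 lower), and leaving out 1 of the treated libraries, an alternative chosen after seeing the data, gave 36 to 99 (31 to 75 higher, 5 to 24 lower). The other scalings gave 71 to 77.

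Among named genes, 6 that had not passed changed sign. Adamts4 was 0.30 and Nos2 0.24 without OA replicates 2 and 3. With limma at the 2 pseudocounts Col1a1 was -0.12 and -0.12, Acan -0.17 and -0.19, and Col2a1 -0.10 and -0.10. Col10a1 was -0.05 with the replicate block. Leaving out 1 library gave -0.45 to 0.08 for Adamts4, -0.12 to 0.37 for Col1a1, -0.17 to 0.38 for Acan, -0.32 to 0.34 for Col10a1, -0.42 to 0.10 for Nos2 and -0.12 to 0.35 for Col2a1. The difference in haemoglobin share was -2.78 percentage points without OA replicates 2 and 3. With limma the median over all genes was -0.11 and -0.13, and list medians near 0 turned negative with it, such as macrophage markers at -0.04 and CXC chemokine genes at -0.05 at the pseudocount of 1.

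Precision is limited by the spread between 4 libraries a group, and for genes under 10 CPM, such as Ccl7, also by counting error.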

Other observations

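Some gene lists that the text above does not describe had 0 calls by edgeR, and 0 by limma. The counts with an unadjusted p under 0.05 and by DESeq2 were 4 and 0 for osteoclast, 2 and 0 for osteoblast, 4 and 1 for adipocyte, 2 and 1 for endothelial, 1 and 0 for T and NK cell, 4 and 0 for proliferation, 0 and 0 for senescence, 3 and 1 for synovial lining and 0 and 0 for interferon response genes. Osteoclast genes had 7 of 15 positive and a median of -0.06, and osteoblast and osteocyte genes 6 of 17 positive and a median of -0.02. Adipocyte genes had 5 of 16 positive and a median of -0.19, with a mean log2 level of -0.94 in OA replicate 4, against -0.18 to 0.28 in the other OA libraries and -0.01 to 0.28 in healthy libraries. Endothelial genes had 4 of 16 positive and a median of -0.18, and T and NK cell genes 11 of 16 positive and a median of 0.10. Proliferation genes had 12 of 19 positive and a median of 0.06, and senescence genes 10 of 14 positive and a median of 0.04. Synovial lining genes had 7 of 13 positive and a median of 0.22, and interferon response genes 13 of 23 positive and a median of 0.11. Without OA replicates 2 and 3, the medians were 0.03 for osteoclast, -0.04 for osteoblast, -0.39 for adipocyte and 0.02 for endothelial genes. They were -0.12 for T and NK cell, -0.02 for proliferation, -0.02 for senescence, 0.07 for synovial lining and -0.06 for interferon response genes. Several of these medians thus changed sign.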
